A study of Mus musculus with 15 samples.

Results

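Tcf7, Id3, Lef1, Bach2, Klf2, Foxo1, Satb1 and Myb encode transcription factors or transcriptional regulators associated with the stem-like, self-renewing state of T cells. They were chosen by name, as 8 of the 21788 gene symbols listed in at least 1 of 15 libraries, and all 8 were listed in all 15. CD8+ T cells that meet antigen for a long time in a tumour lose function stepwise, a course known as exhaustion. A smaller pool with high TCF-1, the product of Tcf7, keeps the capacity to divide and gives rise to the more differentiated cells, which carry the inhibitory receptor TIM-3, the product of Havcr2. TCF-1 and LEF-1 bind shared DNA sites, ID3 restrains E proteins, BACH2 represses effector genes, and FOXO1 drives KLF2 in resting T cells.

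The study measured RNA of CD8+ T cells that had entered E.G7 tumours, which grow from an EL4 T lymphoma line made to produce ovalbumin, in mice with and without the inhibitory ligand B7S1 (gene Vtcn1). Female C57BL/6 mice were 6 to 8 weeks old when tumour cells were placed under the skin, and the labels give ages of 9 to 11 weeks for the samples. Cells of the first 2 experiments below were sorted on day 21, and no day is given for the third. The first experiment had 1 wild-type (WT) library and 1 library labelled B7S1 knockout (KO) of ovalbumin-specific CD8+ cells, with 6 mice per group. The second had PD-1+ CD8+ cells sorted by TIM-3 and by the receptor of B7S1 (B7S1R): B7S1R_SP carried B7S1R and not TIM-3, TIM-3_SP carried TIM-3 and not B7S1R, and DN carried neither. Each of these 3 populations was covered by a wild-type library numbered 1, another numbered 2, and a single one labelled KO. The third had 1 library each for the groups Control, anti_B7S1, anti_PD1 and combo, named in the labels after antibodies. The antibody doses, schedule and sorted phenotype are not given in the sources used here, nor is the extent of the B7S1 deletion, and the strain and genotype fields count upward from sample to sample, so groups were taken from the titles. The source of each sorted library, 1 mouse or a pool, is not stated, so the p-values below measure only the spread between these libraries, which may be technical.

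Some facts of the libraries bear on every result. Values are reads per kilobase of transcript scaled to depth (RPKM, bulk pair) or the fragment-based equivalent (FPKM, all others), and the number of reads behind them is unknown. The libraries numbered 1 list 15627 symbols and those numbered 2 or labelled KO list 17605, so the tables may have been normalized separately. The 3 populations were therefore also compared within sets: wild type number 1, wild type number 2, and the libraries labelled KO. Cd3e and Cd8a were detected in all 15 libraries. Pdcd1, which encodes the PD-1 of the sort gate, was 28.5 to 489 FPKM in the wild-type sorted libraries but 3.17 FPKM (B7S1R_SP), 12.1 FPKM (DN) and 17.7 FPKM (TIM-3_SP) in those labelled KO, so the transcript was low there for cells sorted as PD-1+. Havcr2 stood at 157, 81.8 and 27.4 FPKM in TIM-3_SP and at no more than 9.34 FPKM in the other sorted libraries. Vtcn1 went against the KO labels: in the bulk pair its value was 0.0687 RPKM for wild type but 9.46 RPKM for the label KO. Among the sorted libraries numbered 2 it was listed at 0 in all 3, and it stood at 0.16 to 2.5 FPKM in those labelled KO. Which part of the gene was deleted is not stated, and every genotype direction below rests on the labels alone. Summed myeloid markers ranged from 966 to 9828 FPKM in B7S1R_SP, 492 to 999 FPKM in DN and 228 to 480 FPKM in TIM-3_SP. Of 22 myeloid markers the libraries numbered 1 list 19 and the others all 22, so the sums are over unequal lists. No listed marker was at 0 in any B7S1R_SP library, whereas 3 to 9 were in TIM-3_SP and 4 to 10 in DN; Adgre1 was at 0 in all 3 TIM-3_SP libraries and Mrc1 in all 3 DN libraries. Their part in the levels below was not tested. Some libraries resembled their set more than their population: on log2(FPKM + 1), B7S1R_SP number 1 correlated at 0.823 with DN number 1 and at 0.728 with B7S1R_SP number 2, and the DN and B7S1R_SP libraries labelled KO at 0.950.

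The promoters of 4 of these genes are shown because they hold letters that other products of the list can bind, and because these 4 genes moved together across the sorted populations. Each runs from 250 bases before to 50 bases after an annotated start, taken from RefSeq on GRCm38.p6 (mm10) and written 5′ to 3′ on the strand of the gene. Capitals mark the matches to a TCF/LEF site (CTTTGA), a FOXO site (GTAAACA), a KLF site (CCACCC) or an E-box (CAGCTG or CACCTG), searched on both strands. Tcf7 lies at chr11:52252371-52283014 on the minus strand, and the window shown, of an internal start, is chr11:52282546-52282845. The other Tcf7 window, chr11:52282965-52283264 at the outer end of the gene, holds an E-box and no TCF/LEF, FOXO or KLF match. Id3 lies at chr4:136143497-136145755 on the plus strand, with the window at chr4:136143572-136143871. Lef1 lies at chr3:131110471-131224356 on the plus strand, with the window, of an internal start, at chr3:131156044-131156343. Myb lies at chr10:21124935-21160984 on the minus strand, with the window at chr10:21160935-21161234.
Tcf7: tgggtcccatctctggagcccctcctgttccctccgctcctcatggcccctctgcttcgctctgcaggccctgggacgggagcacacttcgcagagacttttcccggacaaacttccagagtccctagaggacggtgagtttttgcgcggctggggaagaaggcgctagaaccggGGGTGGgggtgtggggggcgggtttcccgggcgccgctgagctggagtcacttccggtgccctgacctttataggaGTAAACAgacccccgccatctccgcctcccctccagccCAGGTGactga
Id3: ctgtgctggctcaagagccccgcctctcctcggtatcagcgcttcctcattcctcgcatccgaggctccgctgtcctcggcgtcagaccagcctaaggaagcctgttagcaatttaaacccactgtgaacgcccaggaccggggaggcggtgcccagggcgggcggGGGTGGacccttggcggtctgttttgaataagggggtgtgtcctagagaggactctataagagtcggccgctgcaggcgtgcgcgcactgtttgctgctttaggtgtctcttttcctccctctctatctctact
Lef1: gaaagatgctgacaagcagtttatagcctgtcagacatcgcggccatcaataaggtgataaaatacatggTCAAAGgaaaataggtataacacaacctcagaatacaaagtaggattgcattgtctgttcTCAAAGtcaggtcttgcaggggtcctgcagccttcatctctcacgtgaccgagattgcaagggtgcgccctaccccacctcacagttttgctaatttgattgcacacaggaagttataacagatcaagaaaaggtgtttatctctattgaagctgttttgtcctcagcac
Myb: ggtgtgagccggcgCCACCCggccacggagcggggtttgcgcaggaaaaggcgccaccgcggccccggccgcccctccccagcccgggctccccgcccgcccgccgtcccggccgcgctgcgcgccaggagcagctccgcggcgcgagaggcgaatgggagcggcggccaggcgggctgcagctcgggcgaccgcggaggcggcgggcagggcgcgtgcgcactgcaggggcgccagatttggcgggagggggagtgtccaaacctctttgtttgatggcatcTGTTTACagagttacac
In the Tcf7 window the FOXO letters begin at position 2 after the start, the KLF letters lie 75 bases before it and an E-box lies at position 40. The Id3 window holds 1 KLF match, 84 bases before the start. The Lef1 window holds the TCF/LEF letters on the other strand at 180 and 120 bases before the start, and the windows of the other Lef1 starts hold none. The Myb window holds FOXO letters at position 34 and a KLF match 236 bases before the start. Both FOXO matches overlap a match to the MYB site AACNG, which was counted and not capitalised since 80.3% of all promoters hold it.

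Among all 8 genes, with 16 promoters between them, a TCF/LEF match occurred in 2 (Lef1 and Bach2), a FOXO match in 2 (Tcf7 and Myb), a KLF match in 6 (all but Bach2 and Foxo1) and an E-box in 3 (Tcf7, Lef1 and Satb1). Over the 27025 genes with a promoter of this length the shares were 18.2% for TCF/LEF, 4.05% for FOXO, 34.0% for KLF and 35.9% for the E-box, and over the 32851 single promoters 16.0%, 3.65%, 31.5% and 32.9%. Genes with several starts have more windows in which a match can fall. A match describes the letters only, and a window without one says nothing about the factor. The other 4 genes are annotated at chr4:32238804-32586108 (Bach2, plus strand), chr8:72319033-72321656 (Klf2, plus strand), chr3:52268336-52353221 (Foxo1, plus strand) and chr17:51736187-51833290 (Satb1, minus strand).

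The first question put to the sorted cells was how the stem-like factors differ between TIM-3_SP and the 2 TIM-3-negative populations. Tcf7, Id3, Lef1 and Myb were lower in all 3 TIM-3_SP libraries than in all 3 DN libraries, as 7.97% of all genes were. Klf2 and Satb1 were also lower in TIM-3_SP than in DN within each set, as 19.7% of all genes were. Tcf7 and Id3 passed the test once the sets were taken into account, where 0.118% of all genes were called lower. Neither passed without a block, and both calls depended on a setting of the variance model given below. Foxo1 and Bach2 had no common direction across the sets. As these are libraries of many cells, fewer cells with a transcript and less transcript per cell cannot be told apart.

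Tcf7, which encodes TCF-1, stood at 168 FPKM (wild type 1), 102 FPKM (wild type 2) and 75.6 FPKM (labelled KO) in DN. In B7S1R_SP it was 150, 94.1 and 106 FPKM in the same order, and in TIM-3_SP 12.1, 7.36 and 15.7 FPKM. The TIM-3_SP libraries were thus the 3 lowest of 9, with no overlap, while the DN and B7S1R_SP libraries were interleaved. Within sets Tcf7 was 13.9-, 13.8- and 4.82-fold lower in TIM-3_SP than in DN, and 12.5-, 12.8- and 6.75-fold lower than in B7S1R_SP. The mean over the 3 libraries was 115 ± 47.7 FPKM in DN, 117 ± 29.6 in B7S1R_SP and 11.7 ± 4.18 in TIM-3_SP (SD, n = 3 with both genotype labels). These SDs also hold the spread between sets and labels. Within sets, B7S1R_SP minus DN was -0.16, -0.11 and 0.48 on the log2(FPKM + 1) scale, with no common direction.

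Lef1 encodes LEF-1, the partner that binds the same DNA sites as TCF-1. It was 53.5, 21.5 and 37.4 FPKM in DN, 38.9, 10.3 and 25.1 FPKM in B7S1R_SP and 7.48, 1.49 and 16.6 FPKM in TIM-3_SP. All 3 DN libraries lay above all 3 of TIM-3_SP, but the B7S1R_SP library numbered 2 fell below the TIM-3_SP library labelled KO. Within sets the DN level was 7.16-, 14.5- and 2.25-fold that of TIM-3_SP, and the B7S1R_SP level 5.20-, 6.89- and 1.51-fold.

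Id3 encodes an inhibitor of E proteins that is high in T cells with memory potential. Its FPKM values were 169, 48.0 and 59.4 in DN, 77.6, 40.8 and 50.5 in B7S1R_SP, and 2.72, 2.34 and 19.7 in TIM-3_SP. No TIM-3_SP library reached the lowest of the other 6, and the TIM-3_SP library labelled KO stood apart from the 2 wild-type ones. The fold of DN over TIM-3_SP was accordingly 62.1 and 20.5 in the wild-type sets and 3.02 in the set labelled KO. Among the 10411 genes tested, Id3 had rank 4 from the lowest log2 difference of TIM-3_SP to DN and Tcf7 rank 22, with Lef1 at rank 77 and Myb at rank 94.

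Myb encodes c-Myb, a factor needed for the self-renewal of stem-like exhausted T cells. It was 11.8, 19.8 and 21.3 FPKM in DN, 7.68, 19.8 and 31.9 FPKM in B7S1R_SP and 1.26, 1.36 and 5.75 FPKM in TIM-3_SP. The 3 TIM-3_SP libraries were again the 3 lowest. DN exceeded TIM-3_SP by 9.33-, 14.5- and 3.70-fold, and B7S1R_SP exceeded it by 6.10-, 14.6- and 5.55-fold. Satb1, which encodes a chromatin organiser needed for T cell development, was low in every sorted library. It was 5.84, 1.37 and 6.22 FPKM in DN, 8.41, 1.09 and 5.73 FPKM in B7S1R_SP and 0.83, 0.57 and 3.34 FPKM in TIM-3_SP. Every set had its lowest Satb1 in TIM-3_SP, yet the populations overlapped because the libraries numbered 2 were low in all 3.

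**Figure D1:**
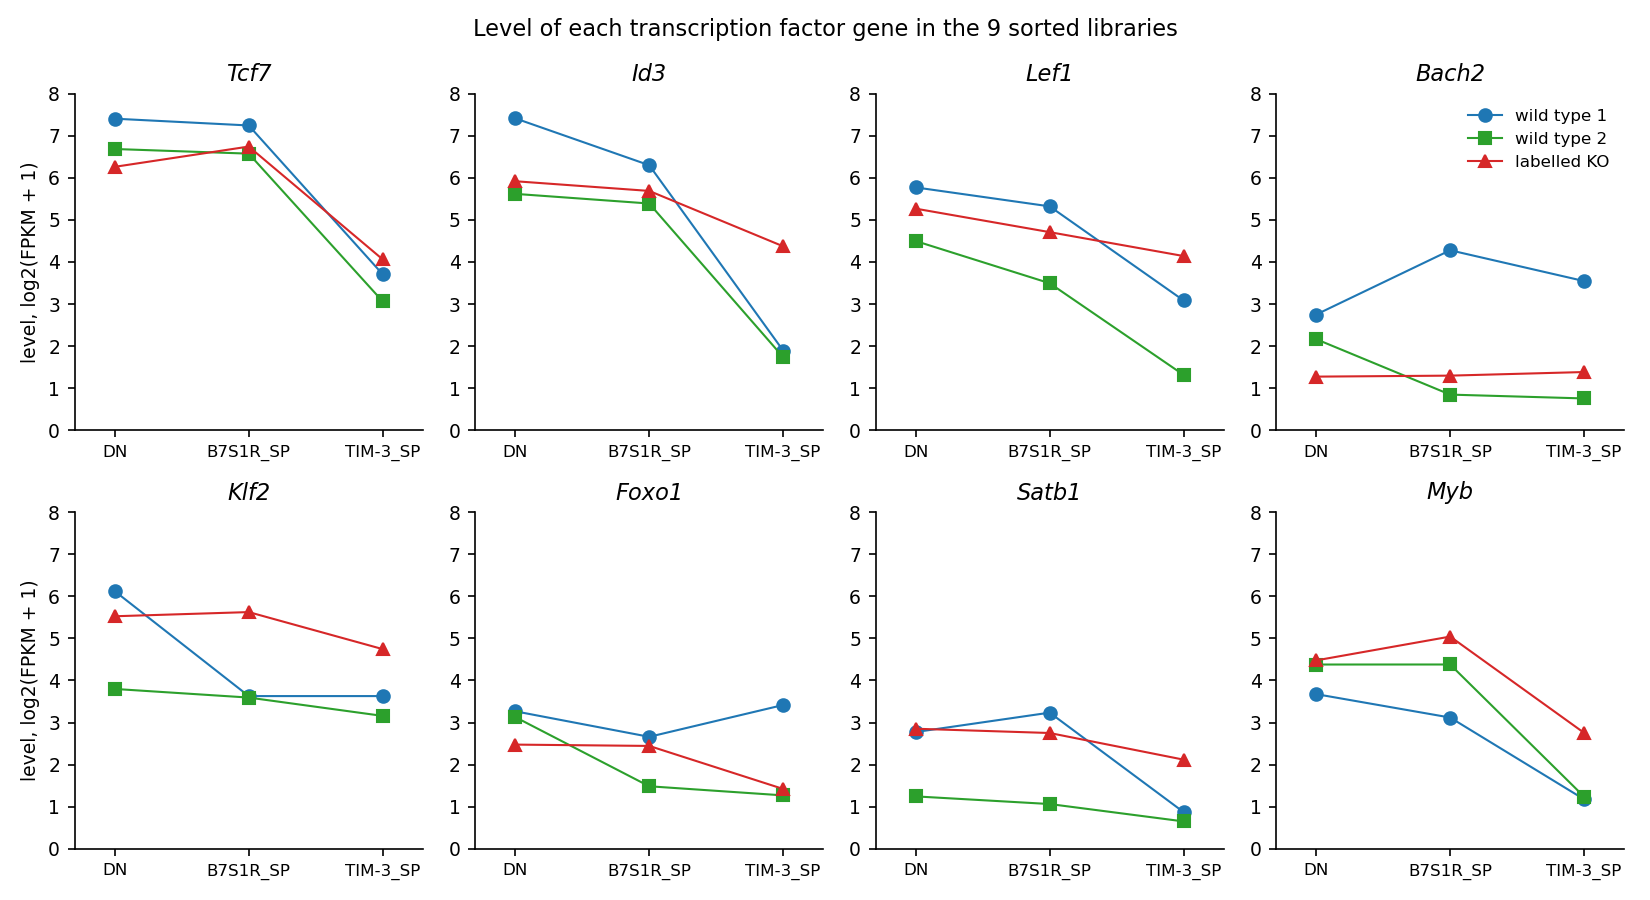
Level of each of the 8 genes, as log2(FPKM + 1), in the 9 sorted libraries; the x axis gives the population, each point is 1 library and lines join the libraries of a set (wild type 1, wild type 2, labelled KO). Tcf7, Id3, Lef1 and Myb have all 3 TIM-3_SP points below all 3 DN points, whereas the points of Bach2, Klf2, Foxo1 and Satb1 overlap between populations.

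Foxo1 encodes a forkhead factor that keeps T cells quiescent and drives genes of lymph node homing. Its FPKM values were 8.62, 7.74 and 4.56 in DN, 5.32, 1.8 and 4.44 in B7S1R_SP and 9.67, 1.41 and 1.68 in TIM-3_SP. The highest of the 9 values lay in TIM-3_SP and so did the lowest. Klf2, a FOXO1 target that drives the egress receptor S1pr1, was 68.5, 12.9 and 45.0 FPKM in DN, 11.4, 11.1 and 48.3 FPKM in B7S1R_SP and 11.4, 7.92 and 25.8 FPKM in TIM-3_SP. Within each set TIM-3_SP was below DN, by 6.03-, 1.63- and 1.74-fold, but the 2 populations overlapped between sets.

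Bach2 encodes a repressor that restrains effector differentiation. It was 5.73, 3.48 and 1.42 FPKM in DN, 18.4, 0.8 and 1.46 FPKM in B7S1R_SP and 10.7, 0.69 and 1.61 FPKM in TIM-3_SP. The spread between sets exceeded that between populations: the B7S1R_SP mean was 6.88 ± 9.96 FPKM (SD, n = 3), set by its library numbered 1. DN had the lowest Bach2 of its set in wild type 1 and in the set labelled KO and the highest in wild type 2.

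The differences were tested with limma, a linear model fitted to every gene that shares information on the spread. On log2(FPKM + 1) over the 6 wild-type libraries and with no block, TIM-3_SP minus DN was -3.66 (SE 0.65, adjusted p = 0.255) for Tcf7, -4.69 (SE 0.81, adjusted p = 0.238) for Id3, -2.93 (SE 1.00) for Lef1 and -2.82 (SE 0.97) for Myb, the last 2 with an adjusted p of 1. None of the 8 genes and none of the 10411 tested passed 0.05 (0% called in either direction), with 316 genes and 4 of the 8 at an unadjusted p under 0.05. Same-numbered libraries deviated together, and with the number as a replicate block Tcf7 (limma adjusted p = 0.0031) and Id3 (limma adjusted p = 0.00078) were lower in TIM-3_SP. With the sets as blocks over all 9 libraries, Tcf7 fell by 3.17 (SE 0.38, limma adjusted p = 0.0060) and Id3 fell by 3.65 (SE 0.63, limma adjusted p = 0.042), against 0.118% of all genes called lower. Myb at -2.45 (limma adjusted p = 0.094) and Lef1 at -2.33 (limma adjusted p = 0.11) did not pass, nor did Klf2, Satb1, Foxo1 or Bach2 at -1.30, -1.08, -0.92 and -0.17. Both calls were lost when the prior variance had no trend with the level (limma adjusted p of 0.0868 for Tcf7 and 0.195 for Id3 over 9 libraries, 0.294 and 0.172 with the block over 6), and when wild-type set 2 was left out (0.065 and 0.19). Id3 alone was lost without wild-type set 1 (limma adjusted p = 0.11) and with upper-quartile scaling (0.058).

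By counts alone, 6 of the 8 were lower in TIM-3_SP than in DN in all 3 sets (Tcf7, Id3, Lef1, Klf2, Satb1 and Myb), where 19.7% of 10178 genes were, and none was higher in all 3 (8.61% of genes). All 6 stayed lower with each difference at 1.5-fold or more on the FPKM + 1 scale, where 5.46% of genes were. Without overlap between the 3 and 3 libraries there were 4 (Tcf7, Id3, Lef1 and Myb) and 7.97% of genes. The median log2 difference was -2.19 over the 8 genes and -0.17 over all genes in the 6-library fit.

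For B7S1R_SP against TIM-3_SP, the same 4 genes led. The log2 difference in the 6 wild-type libraries was 3.52 (SE 0.65, limma adjusted p = 0.18) for Tcf7, 4.02 (SE 0.81, limma adjusted p = 0.29) for Id3, 2.54 for Myb and 2.21 for Lef1, and none of the 8 passed while 0% of genes were called higher and 0.0576% lower. The replicate block gave limma adjusted p-values of 0.0030 for Tcf7 and 0.0035 for Id3. Over all 9 libraries with sets as blocks, 3 of the 8 were higher in B7S1R_SP against 0.786% of all genes: Tcf7 rose by 3.24 (SE 0.38, limma adjusted p = 0.0021), Id3 by 3.12 (SE 0.63, 0.034) and Myb by 2.46 (SE 0.50, 0.037). Within sets 5 of the 8 (these 3, Lef1 and Satb1) were higher in B7S1R_SP in all 3, where 24.7% of genes were, and none was lower in all 3 (13.9%). By library, Tcf7, Id3 and Myb had all 3 B7S1R_SP values above all 3 of TIM-3_SP, as 9.02% of genes did. Lef1 at 1.66, Satb1 at 1.14, Klf2 at 0.44, Bach2 at 0.25 and Foxo1 at 0.16 did not pass. Without a trend in the prior variance Tcf7 alone remained over 9 libraries (limma adjusted p = 0.033, with 0.11 for Id3 and 0.069 for Myb), and both calls of the 6-library block were lost (0.190 for Tcf7 and 0.179 for Id3). Without wild-type set 2 Tcf7 was also alone (limma adjusted p = 0.021, with 0.19 and 0.25).

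B7S1R_SP libraries also held less T cell RNA and more myeloid RNA than TIM-3_SP. Their summed T cell identity genes were 2191 to 5107 FPKM, against 6768 to 9124 FPKM in TIM-3_SP and 3518 to 8044 FPKM in DN. In the 9-library fit 8 of 18 myeloid markers were called higher in B7S1R_SP than in TIM-3_SP, among them Lyz2 at 5.77, and the T cell gene Cd3g was called lower at -1.60. Relative to the T cell identity genes, an alternative added after the data were seen, the 9-library differences were larger at 4.41 for Tcf7, 4.30 for Id3, 3.63 for Myb and 2.83 for Lef1, and 5 of the 8 passed, with Satb1 as the fifth, where 30.3% of all genes were called higher and 0.54% lower. The same scaling moved the median of all genes from 0.18 to 1.35. It shifts every gene of a library by the same amount, so the whole gain is common to all genes. Dntt, a gene of immature T cells and of some lymphomas, was also called higher in B7S1R_SP over 9 libraries (3.45, SE 0.60). Of other genes of immature T cells, Tcf12 (1.65) and Arpp21 (1.25) were higher and Themis (-1.97) was lower in all 3 sets, none of them called. The part of immature cells in the levels of Tcf7 and Myb was not tested.

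**Figure D2:**
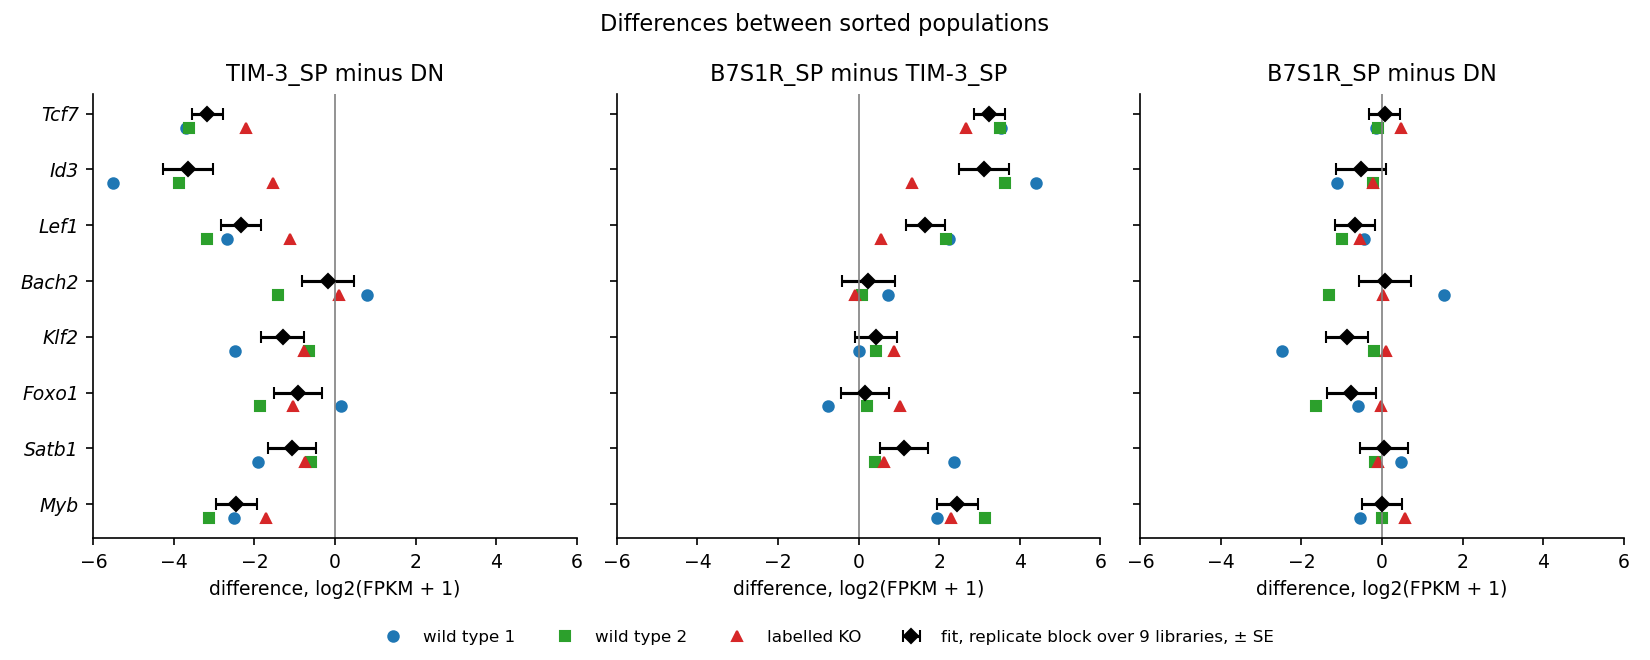
Difference in log2(FPKM + 1) for TIM-3_SP minus DN, B7S1R_SP minus TIM-3_SP and B7S1R_SP minus DN, with 1 coloured point per set for each gene; black diamonds and bars give the limma estimate with sets as blocks over 9 libraries ± SE, and the grey line marks 0. Tcf7, Id3, Lef1, Satb1 and Myb keep one sign in all 3 sets in both comparisons with TIM-3_SP. The SE bars of Tcf7, Id3, Bach2, Satb1 and Myb span 0 in B7S1R_SP minus DN.

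Between B7S1R_SP and DN no gene of the 8 passed in any fit run, and over 9 libraries 0.00983% of genes were called lower and 0% higher. The 6-library log2 differences were -0.14 (SE 0.65) for Tcf7, -0.67 (SE 0.81) for Id3, -0.73 (SE 1.00) for Lef1, -0.28 (SE 0.97) for Myb, -1.35 (SE 0.93) for Klf2, -1.12 (SE 1.11) for Foxo1, 0.11 (SE 1.39) for Bach2 and 0.14 (SE 1.13) for Satb1. Standard errors of this size leave differences of severalfold undetectable in this fit for all 8 genes. In the same fit Tcf7 at -3.66 and Id3 at -4.69 did not pass in TIM-3_SP minus DN. In all 3 sets Id3, Lef1 and Foxo1 were lower in B7S1R_SP than in DN, 3 of 8 against 14% of all genes (2 of 8, without Id3, under upper-quartile scaling, with 12.0% of genes), and none was without overlap in either direction (3.16% of genes lower, 3.75% higher). Klf2 differed most in wild-type set 1, with 11.4 FPKM in B7S1R_SP and 68.5 FPKM in DN, and little in the other sets.

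The sum of the 8 genes was lowest in TIM-3_SP in each set, though Bach2 and Foxo1 singly had no common direction. Summed over the 8 genes, FPKM was 491, 217 and 251 in DN, 318, 180 and 273 in B7S1R_SP and 56.1, 23.1 and 90.2 in TIM-3_SP. Tcf7 made up 30.1% to 52.4% of the sum in DN and B7S1R_SP and 17.4% to 31.8% in TIM-3_SP. Id3 made up 18.5% to 34.4% and 4.85% to 21.8%, so the sum mostly follows these genes in DN and B7S1R_SP. Per unit of Cd3e, Tcf7 was 0.392, 0.301 and 0.778 in DN, 0.532, 0.659 and 3.09 in B7S1R_SP and 0.0277, 0.0198 and 0.0677 in TIM-3_SP, so the TIM-3_SP libraries were lowest on that scale too.

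Across the 9 sorted libraries, after each set mean was subtracted, log2(FPKM + 1) of Tcf7 correlated with that of Myb (Pearson r = 0.98), Id3 (0.96), Lef1 (0.93) and Satb1 (0.84), less with Klf2 (0.58) and Foxo1 (0.39), and least with Bach2 (0.21). Id3 and Lef1 correlated at 0.96, and Bach2 and Klf2 at -0.46. These values describe 9 libraries in 3 populations that share their set's table. Among 6226 genes averaging 5 FPKM or more, those most like Tcf7 were Anxa1 (0.991), Cux1 (0.990) and Lamp1 (0.989), and the gene most like Id3 was Dapl1 (0.995). Rtn3 was most like Myb (0.993), Tpm1 most like Lef1 (0.988), Ctps most like Satb1 (0.990), Agk most like Klf2 (0.992), Stat6 most like Bach2 (0.989) and Ppp2r5d most like Foxo1 (0.958).

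Other genes of the same programs were counted from lists. Of 20 further genes of the stem-like program 15 were lower in TIM-3_SP than in DN in all 3 sets and 0 were higher, beside 19.7% and 8.61% of all genes. Summed, the 20 stood at 5766, 3401 and 3201 FPKM in DN (wild type 1, wild type 2, labelled KO) and 1380, 1141 and 1308 FPKM in TIM-3_SP. In B7S1R_SP the sums were 3011, 1106 and 1265 FPKM, above TIM-3_SP in wild type 1 only. In the 9-library fit 2 of the 20 were called lower: Xcl1, a chemokine that attracts cross-presenting dendritic cells, at -3.67 (SE 0.51, limma adjusted p = 0.018), and Dapl1 at -3.78 (SE 0.65, limma adjusted p = 0.042). Xcl1 was 1436, 900 and 1735 FPKM in DN and 40.0, 136 and 194 FPKM in TIM-3_SP. The KLF2 target S1pr1, which lets T cells leave tissue, was 77.3, 20.1 and 7.7 FPKM in DN, 4.98, 4.79 and 5.94 in B7S1R_SP and 0.26, 0.15 and 4.2 in TIM-3_SP. It did not pass in TIM-3_SP against DN (limma adjusted p = 0.16 over 9 libraries).

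Id2, the inhibitor of E proteins that marks effector T cells, moved opposite to Id3 in both comparisons with TIM-3_SP. In B7S1R_SP minus DN it was lower in all 3 sets, as Id3 and 14% of all genes were, and neither was called. It was 871, 795 and 373 FPKM in DN, 385, 344 and 164 FPKM in B7S1R_SP and 1970, 3195 and 2365 FPKM in TIM-3_SP, with no overlap between the populations with and without TIM-3. Over 9 libraries it rose by 1.95 (SE 0.33, limma adjusted p = 0.037) from DN to TIM-3_SP, and was lower in B7S1R_SP than in TIM-3_SP at -3.14 (SE 0.33, limma adjusted p = 0.00086). Nr4a2, an activation-induced nuclear receptor, was the other gene of the effector list called lower in B7S1R_SP (-2.38, SE 0.51, limma adjusted p = 0.044), and Id2 was the only one called in TIM-3_SP against DN. Among partners and co-repressors of TCF and LEF 9 genes were tested, 2 were lower in TIM-3_SP in all 3 sets (Gsk3b and Ctnnb1, which encodes beta-catenin), a share near the 19.7% of all genes, and none was called. Of 12 regulators of FOXO1 tested none was called, and of 16 further quiescence factors tested, 6 were lower in all 3 sets (19.7% of all genes), led by Klf3 and Foxp1, and none was called.

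The labels KO and WT were compared over the 9 sorted libraries with the population as a term. None of the 8 genes passed, as none of 10178 genes did (limma, 0% called in either direction, 1638 genes and 2 of the 8 at an unadjusted p under 0.05). The largest log2 differences of KO minus WT were 1.31 (SE 0.53, limma adjusted p = 0.27) for Klf2 and 1.10 (SE 0.50, limma adjusted p = 0.31) for Myb, followed by 0.93 for Satb1, 0.79 for Lef1, 0.60 for Id3, -0.09 for Tcf7, -0.42 for Foxo1 and -1.07 for Bach2. The median was 0.70 over the 8 genes and -0.41 over all genes, of which 68.2% were lower with the label KO. This fit crosses tables that may have been normalized separately, and upper-quartile scaling moved the median of all genes to 0.01 and scaling to T cell identity genes moved it to 0.80. Klf2 was then 1.82 and 2.52, with 4 and 6 of the 8 at an unadjusted p under 0.05, and still none passed (lowest limma adjusted p 0.198 and 0.148).

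Within the tables that list the same genes, the library labelled KO could be set beside that numbered 2. Id3, Lef1, Klf2, Satb1 and Myb were higher in the library labelled KO in all 3 populations, 5 of 8 against 13.8% of genes, and none was lower in all 3 (23.4% of genes). The libraries numbered 2 stood apart in red cell RNA, with summed erythroid markers of 11150, 95221 and 66205 FPKM in B7S1R_SP, TIM-3_SP and DN against 4.75, 11.1 and 142 FPKM in those labelled KO, and its part in these values was not tested. Against number 2, Klf2 was 3.49-, 4.36- and 3.26-fold higher in DN, B7S1R_SP and TIM-3_SP, and Satb1 4.54-, 5.26- and 5.86-fold. Satb1 was low in the libraries numbered 2, at 1.37, 1.09 and 0.57 FPKM in that order. The ratios to number 1 were 0.66, 4.25 and 2.27 for Klf2 and 1.07, 0.68 and 4.02 for Satb1. Against both wild-type libraries Myb alone was higher in all 3 populations (6.46% of genes), at 21.3 FPKM against 11.8 and 19.8 FPKM in DN.

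The TIM-3_SP library labelled KO lay above both wild-type ones for 6 of the 8 genes, as it did for 21.6% of all genes, and below both for none (37.3%). Id3 was 19.7 FPKM there against 2.72 and 2.34, Lef1 16.6 against 7.48 and 1.49, and Myb 5.75 against 1.26 and 1.36. Tcf7, Klf2 and Satb1 were also above, while Bach2 and Foxo1 lay between the 2 wild-type values. In DN the library labelled KO was below both wild-type ones for Tcf7, Bach2 and Foxo1 (53.4% of all genes) and above both for Satb1 and Myb (21.8%). A limma F test of whether the genotype difference varied with the population gave an unadjusted p of 0.083 for Id3 and 0.43 or more for the other 7, all with an adjusted p of 1, and 0 of 10178 genes passed (41 at an unadjusted p under 0.05). Havcr2 in that TIM-3_SP library was 27.4 FPKM, against 157 and 81.8 in the wild-type ones, Pdcd1 was low there too, and the part of the sort in these levels was not tested.

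**Figure D3:**
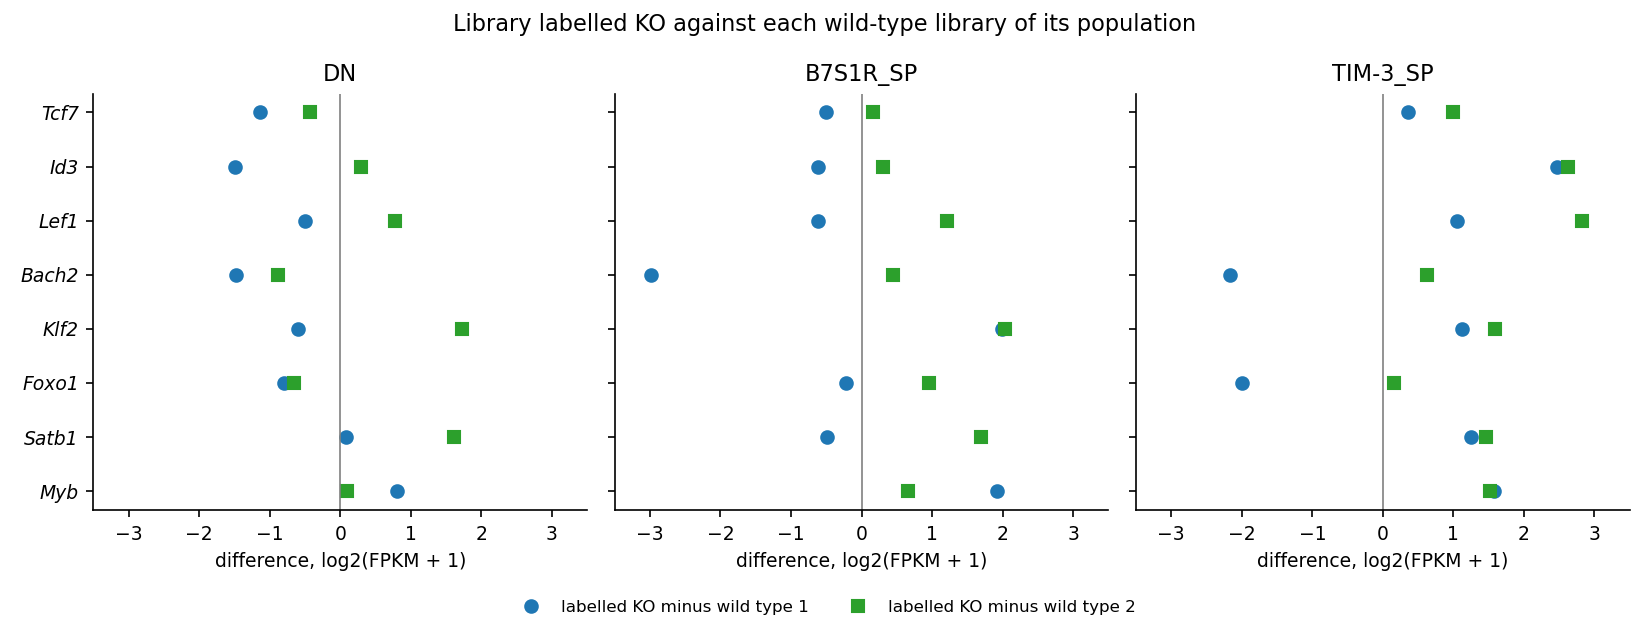
Difference in log2(FPKM + 1) of the library labelled KO from each of the 2 wild-type libraries of the same population, for the 8 genes. Myb lies above 0 against both wild-type libraries in all 3 populations, and Id3, Lef1 and Klf2 lie above 0 against both in TIM-3_SP.

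The bulk pair gave 1 library per genotype label and so no test. Of the 8 genes 5 had at least 5 RPKM in 1 of the libraries. Foxo1 was 24.7 RPKM in the wild-type library and 10.2 RPKM in the library labelled KO, 2.43-fold lower, and was the only one past 2-fold, where 14.1% of 6075 genes were lower and 12.2% higher. Tcf7 was 20.6 and 13.6 RPKM (1.51-fold lower in the library labelled KO) and Id3 8.88 and 5.68 RPKM (1.56-fold lower). Klf2, at 21.7 and 20.1 RPKM, and Bach2, at 16.0 and 18.4 RPKM, stood close to equal.

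The other 3 were low in the bulk pair. Myb was 0.597 and 0.461 RPKM and Satb1 0.0427 and 0.0131 RPKM. Lef1 was listed at 0.001 RPKM, the lowest value of the file, for wild type, against 0.141 RPKM for the label KO, so no fold is given. These 3 genes were far below the other 5 in both bulk libraries. The ratios of low genes fell on ratios of small whole numbers for 94.6% of 2697 genes (denominators up to 12, within 0.02%), which puts the depth of the library labelled KO at 1.09 times that of the wild type.

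The antibody experiment had 1 library per group, so its ratios carry no error and no test. In Control, anti_B7S1, anti_PD1 and combo order, Tcf7 was 73.8, 85.2, 9.96 and 2.5 FPKM. Id3 was 59.9, 24.3, 0.65 and 0.24 FPKM, and Lef1 was 22.3, 28.0, 0.03 and 0.02 FPKM. The 2 libraries named for the PD-1 antibody, alone or in combo, were the 2 lowest for all 3 genes.

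Among the remaining genes Bach2 was 44.7, 10.7, 7.53 and 0.11 FPKM in the same order, and Foxo1 12.3, 18.0, 4.75 and 0. Klf2 was 20.9, 0.43, 3.29 and 0 FPKM, low in all 3 antibody libraries, and Myb 3.27, 8.79, 0.05 and 0.93 FPKM. Satb1 was the exception, at 11.0, 22.0, 6.18 and 20.9 FPKM, high in both libraries named for the B7S1 antibody. Klf2 and Foxo1 are listed at 0 in combo, where the housekeeping gene Tbp is too, as is Gusb in Control, so no fold is given for them.

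In anti_PD1 against Control, 6 of the 7 genes with at least 5 FPKM in either library were at least 2-fold lower (24.4% of 7829 genes) and none was higher (44.2%): Tcf7 by 7.41-fold, Id3 by 92.1-fold, Bach2 by 5.93-fold, Klf2 by 6.34-fold, Foxo1 by 2.59-fold, and Lef1, at 0.03 FPKM. Satb1 was 1.79-fold lower. In combo against anti_B7S1, which shares no library with that pair, 6 of 7 were lower (31.4% of 7546 genes) and none was higher (33.8%), with Tcf7 34.1-fold and Myb 9.45-fold lower. In both pairs 5 of 6 genes were at least 2-fold lower (Tcf7, Id3, Lef1, Bach2 and Foxo1), where 7.63% of genes were, and none was higher (16.0% of genes).

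For the B7S1 antibody, anti_B7S1 against Control had 3 of 8 genes at least 2-fold lower (Id3, Bach2 and Klf2; 29.5% of 7083 genes) and 1 higher (Myb; 38.3%). Combo against anti_PD1 had 2 of 3 lower (Tcf7 and Bach2; 33.6% of 8000 genes) and Satb1 higher (24.6%). Bach2 alone was at least 2-fold lower in both pairs (8.99% of genes) and none of the 3 genes with the minimum in both was at least 2-fold higher in both (8.67%). By any amount Satb1 was higher in both (24.1% of genes) and Bach2 lower (24.1%). Combo against Control had 6 of 7 lower (28.3% of 7226 genes) and none higher (40.5%), on a Control library shared with the other comparisons.

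Other features also differed between the 4 antibody libraries. Havcr2 was 0.19 FPKM in Control, 174 in anti_B7S1, 213 in anti_PD1 and 198 in combo, so anti_B7S1 joined a high Havcr2 with a Tcf7 of 85.2 FPKM. Genes listed at 0 made up 42.4%, 30.1%, 15.3% and 32.8% of the 4 tables in that order, and summed T cell identity genes were 4078 to 5962 FPKM. The sum of the 8 genes was 248 and 197 FPKM in Control and anti_B7S1 and 32.4 and 24.7 FPKM in anti_PD1 and combo, and the part of the sorted phenotype in this step was not tested.

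**Figure D4:**
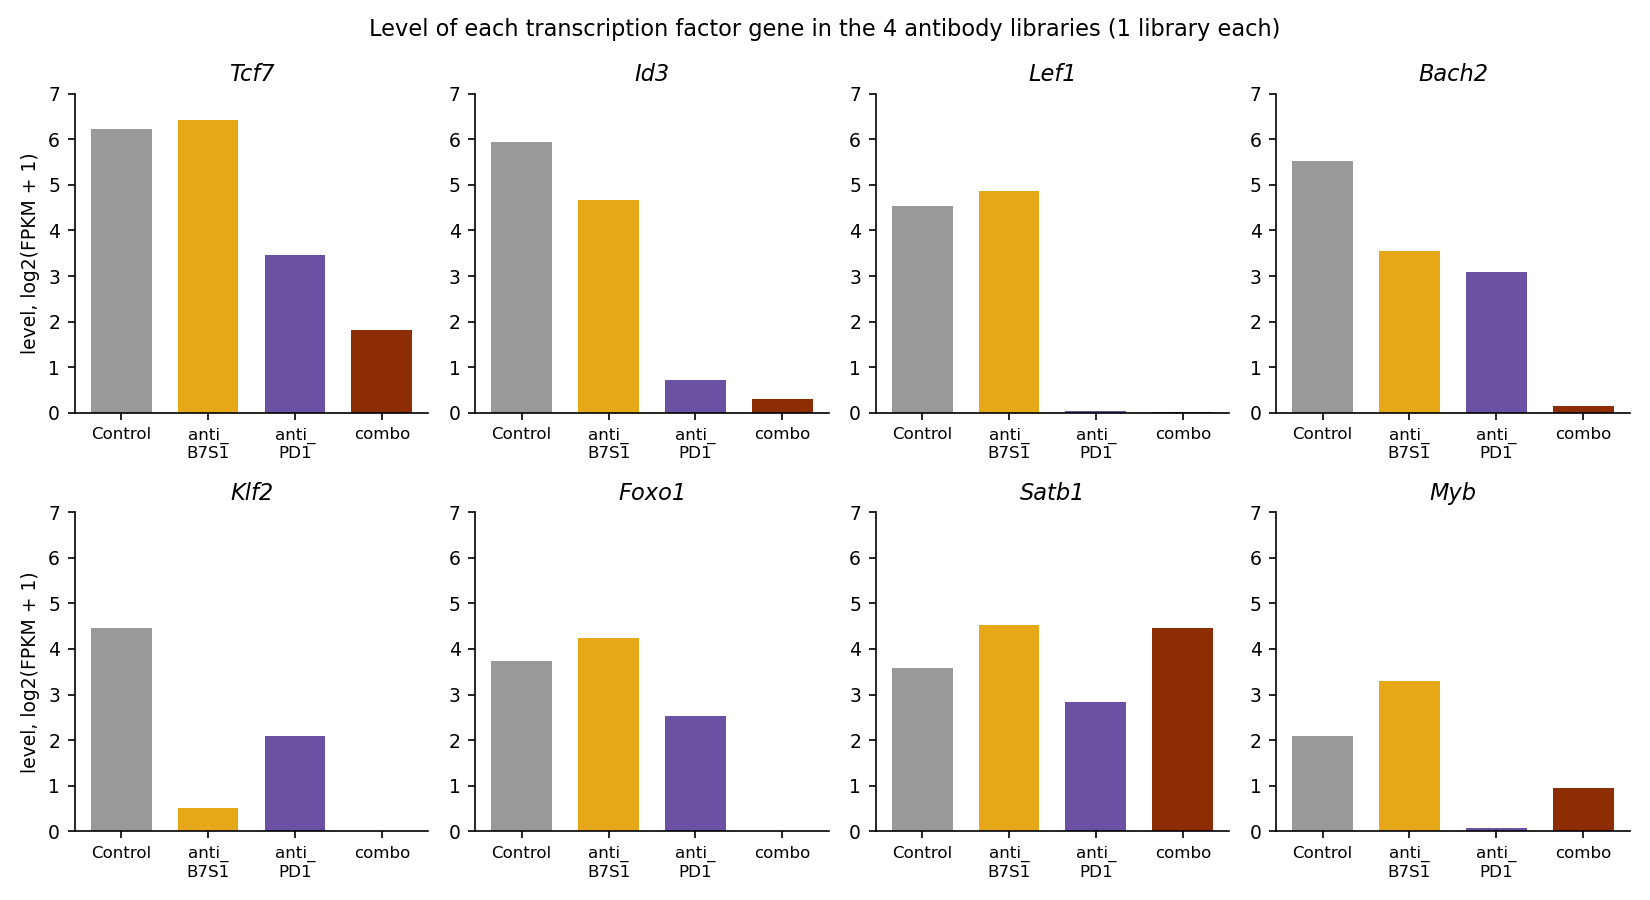
Level of the 8 genes, as log2(FPKM + 1), in the 4 antibody libraries; each bar is 1 library, with no replicates and so no error bar. Tcf7, Id3, Lef1, Bach2 and Foxo1 are lower in anti_PD1 and combo than in Control and anti_B7S1, whereas Satb1 in combo is close to its level in anti_B7S1.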

How the data were processed

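RNA of CD8+ tumour-infiltrating T cells was measured in 15 libraries made with the SMARTer ultra low input kit and sequenced on HiSeq machines, per the labels' protocols. The authors deposited RPKM for the bulk pair and FPKM for the 13 other libraries, normalized to length and sequencing depth per the labels' protocols. The submitters' processing notes name HISAT2, Bowtie2, RSEM and mm10, without versions or order. Read totals are not given in the sources used here, so no counting interval was computed; precision rests on the spread between libraries.

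Values were used as deposited. limma 3.58.1 (R 4.3.3) was fitted to log2(FPKM + 1), with a trend in the prior variance, over genes listed once in every library of the fit with a mean of at least 1 FPKM. The p-values are two-sided, adjusted by Benjamini-Hochberg over all genes fitted, with a threshold of 0.05, and fold changes on this scale understate low genes. The limma fit without a block over the 6 wild-type libraries was tested on simulated data with independent noise between libraries. That test did not cover the blocked, genotype or interaction fits. The labels do not say what numbers 1 and 2 stand for; over 10411 genes the deviations of same-numbered libraries had correlations of 0.193, 0.269 and 0.401 for the 3 pairs of populations, each over 0.1, so the numbers were taken to pair the libraries and blocked values stand beside the others. The libraries labelled KO carry no number and formed a block of their own in the 9-library fits. Single-library comparisons used ratios, with a call at 2-fold or more and at least 5 in the higher library.

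The 8 genes, the gene lists and the fits were chosen with earlier results of these data known. Named genes are the 8, checks of sort and label, up to 4 per list with the largest log2 difference among those of one direction in all 3 sets, and the genes most correlated with each of the 8. One gene that this rule names is not reported here. Alternatives covered the pseudocount, the filter, scaling, absent genes, the prior variance, blocks and each library left out; fits scaled to T cell identity genes, and combinations with the 9-library block, were added after the data were seen. Positions are from GENCODE M21 on mm10 and promoters from RefSeq on GRCm38.p6.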

Additional observations from a re-analysis of the deposited data

Results flagged for a closer look

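In 3 cases the set labelled KO moved opposite to both wild-type sets. Tcf7 in B7S1R_SP minus DN was 0.48 on the log2(FPKM + 1) scale in the set labelled KO, against -0.16 and -0.11 in the wild-type sets. Klf2 in the same comparison was 0.099 there, against -2.49 and -0.20. Bach2 in B7S1R_SP minus TIM-3_SP was -0.085 there, against 0.73 and 0.091. Under upper-quartile scaling wild-type set 2 turned positive for Tcf7 (0.25) and Klf2 (0.13), so that neither then stood opposite to both. These set differences rest on 1 library of each population and were not tested singly; the limma F test of genotype by population gave unadjusted p-values of 0.43, 0.64 and 0.98 for Tcf7, Klf2 and Bach2. With the B7S1 antibody Tcf7 was 0.20 in anti_B7S1 against Control and -1.65 in combo against anti_PD1, a difference in direction between single libraries that was not tested.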

How the results depend on the processing

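The number of the 8 genes called depended on the block and on the trend in the prior variance. Without that trend it was 0 in both blocked fits of TIM-3_SP minus DN and in the 6-library block of B7S1R_SP minus TIM-3_SP. With the trend and the block over 9 libraries, 0.118% of all genes were called lower in the first comparison and 0.786% higher in the second. Scaling to T cell identity genes raised the latter share to 30.3%. The counts that follow are with the trend unless stated. In TIM-3_SP minus DN it was 0 with no block, 2 with the replicate block (Tcf7 and Id3), 2 with the replicate block over 9 libraries, 2 when that was scaled to T cell identity genes and 1 with upper-quartile scaling, with 0 to 2 as libraries or sets were left out. In B7S1R_SP minus TIM-3_SP these counts were 0, 2, 3, 5 and 3, with 1 in the 9-library block without a trend in the prior variance and 0 to 3 as libraries or sets were left out. No alternative called a gene of the 8 in B7S1R_SP minus DN, KO minus WT or the interaction. Over all genes the calls ran from 0 to 26, 0 to 3137 and 0 to 28 in the 3 population comparisons, where no block gave 0, 6 and 0, and from 0 to 6 for KO minus WT; leaving libraries or sets out gave 0 to 33, 0 to 434, 0 to 10 and, for KO minus WT, 0 to 737, the last without B7S1R_SP number 2. In 21 alternatives Tcf7, Id3, Lef1, Klf2, Satb1 and Myb kept the direction of TIM-3_SP minus DN, and Tcf7, Id3, Lef1, Satb1 and Myb that of B7S1R_SP minus TIM-3_SP.

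Some differences changed sign, none of them past the threshold, and the cause was not tested. Foxo1 in B7S1R_SP minus TIM-3_SP became 0.16 in the 9-library block with or without a trend, 0.15 with upper-quartile scaling of it, and 0.76 and 1.34 when scaled to T cell identity genes without and with the block. In B7S1R_SP minus DN, Tcf7 became 0.0074 with upper-quartile scaling, 0.070 in the 9-library block with or without a trend, 0.17 with both, and 0.97 and 1.03 scaled to T cell identity genes. Myb became 0.0033 in that block with or without a trend, 0.11 with upper-quartile scaling of it, and 0.82 and 0.97 scaled to T cell identity genes. The same 2 scalings gave 0.43 and 0.44 for Id3 and 0.38 and 0.29 for Lef1, and the blocked one 0.099 for Klf2 and 0.20 for Foxo1; Bach2 became -0.16 with a pseudocount of 0.1. In KO minus WT, Tcf7 became 0.43 (upper quartile), 0.25 (libraries numbered 2 and labelled KO) and 1.12 (T cell scaling), Foxo1 0.012, 0.15 and 0.79, and Bach2 0.063 and 0.14 under the last 2.

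As single libraries or sets were left out, TIM-3_SP minus DN ran from -1.70 to 1.09 for Bach2 and -1.93 to 0.22 for Foxo1. B7S1R_SP minus TIM-3_SP ran from -1.30 to 2.13 for Bach2, -0.018 to 0.66 for Klf2 and -1.34 to 0.80 for Foxo1. B7S1R_SP minus DN ran from -0.50 to 0.22 for Tcf7, -1.57 to 0.23 for Id3, -1.64 to 0.19 for Lef1, -1.61 to 1.82 for Bach2, -0.95 to 1.22 for Satb1 and -0.91 to 0.35 for Myb. KO minus WT ran from -0.47 to 0.25 for Tcf7 and -0.38 to 1.20 for Id3, the latter negative without the TIM-3_SP library labelled KO.

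Among single-library comparisons, the bulk count of genes lower rose from 1 to 3 at 1.5-fold (Tcf7, Id3 and Foxo1), and combo against anti_PD1 had 5 calls with a minimum of 1 FPKM. The genes higher in B7S1R_SP than TIM-3_SP in all 3 sets were 3 at 1.5-fold and 3 without overlap, and those lower in B7S1R_SP than DN 0 and 0. A fold for a gene below 1 FPKM rests on a depth that is unknown.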

Other observations

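Other lists were also compared between the labels in the sorted libraries, and no gene of any list was called (limma, 0 of 10178 genes, 1638 at an unadjusted p under 0.05). Of all genes 68.2% were lower with the label KO. The 11 T cell identity genes tested were all lower with that label, with a median log2 difference of -1.29, and 18 of 19 effector factors were lower, with a median of -1.31, beside -0.41 over all genes. Of 20 genes of the stem-like program 13 were lower and 7 higher (median -0.70), a share near that of all genes, and 15 of 18 myeloid markers were higher (median 0.81). The median log2(FPKM + 1) of listed myeloid markers was 7.77 in B7S1R_SP labelled KO, against 4.58 and 3.84 in wild type numbers 1 and 2. In the same order it was 0.34 against 2.07 and 1.74 in TIM-3_SP, and 0.21 against 1.41 and 0.06 in DN. The higher myeloid level was therefore not common to the 3 populations. The list counts are on FPKM as deposited. Upper-quartile scaling moved the median of all genes from -0.41 to 0.01, and the counts of the lists under it were not computed. Between B7S1R_SP and DN, 11 of the 20 stem-like program genes were lower in B7S1R_SP in all 3 sets and none was higher, beside 14% and 15.8% of all genes, with a median of -1.54 in the 6-library fit against -0.03 over all genes, and none was called.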
